A study of Homo sapiens with 12 samples.

Results

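In HT29 cells, the mRNAs for cystine uptake (SLC7A11) and for both subunits of the first enzyme of glutathione synthesis (GCLC and GCLM) lay higher with the extract of Aconitum carmichaeli Debeaux (ACD) at the medium and high doses, whereas the mRNA of the second enzyme (GSS) stayed close to its vehicle level. The 8 genes described here, GCLC, GCLM, GSS, GSR, SLC7A11, GGCT, GGT1 and OPLAH, were chosen by name and from their expression over all 4 groups of these data, out of 60675 gene IDs in the table. Each symbol matched 1 gene ID, and all 8 were among the 15374 genes that passed the filter on low counts. Because the choice used the same contrasts, their values are a description, no p-value is given for any of the 8, and the counts of them that passed thresholds are set beside the share of all genes and not read as support.

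HT29 cells derive from an adenocarcinoma of the human colon. ACD is an aconite used as a medicinal herb, and its water extract was given for 24 h at 20 µg/mL, the low dose, at 100 µg/mL, the medium dose, and at 500 µg/mL, the high dose. Vehicle cultures received PBS that contained 2% DMSO, and per the study's methods the extract stock was made up in the same solvent. The 2% is that of the solution added to the wells and not of the final medium. RNA was sequenced in 3 libraries per group, 12 in all. The titles and the treatment field name ACD, whereas a longer note in the labels describes Poria cocos, which is a different herb, and grouping here followed the titles. The labels do not say that the 3 libraries of a group came from separate cultures, so the errors and p-values below cover only the spread between these libraries. All results are from 1 cell line, and the same 3 vehicle libraries serve all 3 doses.

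Glutathione is a tripeptide of glutamate, cysteine and glycine and the main small thiol of the cell. Cysteine is usually its scarcest building block, and many cells import it as the oxidised dimer cystine through system xc-, an antiporter made of SLC7A11 and the heavy chain SLC3A2 that exports glutamate in exchange. Glutamate-cysteine ligase (GCLC, the catalytic subunit, and GCLM, the modifier subunit) joins glutamate to cysteine, glutathione synthetase (GSS) adds glycine, and glutathione reductase (GSR) recycles oxidised glutathione with NADPH. In the gamma-glutamyl cycle, GGT1 splits glutathione outside the cell, GGCT releases 5-oxoproline from gamma-glutamyl amino acids, and OPLAH opens 5-oxoproline to glutamate. GCLC, GCLM, GSR and SLC7A11 are textbook targets of NRF2, which binds antioxidant response elements, and SLC7A11 is also a target of ATF4, which binds amino acid response elements.

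Total expected counts per library ran from 15941255 to 33866644 (median 23833237). High-dose replicate 2 had the lowest total and stood apart: its log2 differences from its 2 fellow replicates' mean had an SD of 0.502, against 0.102 to 0.293 for the other 11. It held relatively more counts of short transcripts, with a median deviation of 0.52 on the log2 scale for genes with a longest transcript under 1500 bp and of −0.27 for those over 5000 bp. Vehicle replicate 1, which serves all 3 contrasts, deviated in the same direction by less, with medians of 0.27 and −0.13. Because high-dose replicate 2 stood apart, high-dose values without that library are given for the 8 genes and for the DEGs of the other lists. Chromosome M held 14.0% to 16.6% of counts at the high dose and 7.41% to 11.05% in the other groups, and leaving it out changed no log2 fold change of the 8 genes by more than 0.01. All 10 markers of colorectal epithelium reached 1 CPM in at least 1 library of every group (CPM is a count scaled to the TMM-corrected size of its library, as edgeR computes it), with CDX1 the lowest at 0.923 CPM or more per library, and their summed level was between 10959 and 13144 CPM in each library. The 10 markers of other cell types summed to 13.6 to 15.7 CPM at the high dose and to 10.7 to 13.3 CPM in the other groups, with 3 or 4 of the 10 reaching 1 CPM in at least 1 library of a group and COL1A2 at 0 in every library, and their part in the results was not tested.

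The windows upstream of the RefSeq starts of GCLM and GCLC are shown because these 2 genes, whose products form 1 enzyme, held nearly the same ratio in every library. They were searched on both strands for the core of the antioxidant response element, TGACNNNGC, and for that of the amino acid response element, TGATGNAA. These 2 motifs do not share a match in the windows shown. The sequences are from RefSeq (GRCh38.p14), 250 bases before the start, 5′ to 3′ on the minus strand of each gene, and capitals mark the match to TGACNNNGC read on the opposite strand.
GCLM, chr1:93909431-93909680: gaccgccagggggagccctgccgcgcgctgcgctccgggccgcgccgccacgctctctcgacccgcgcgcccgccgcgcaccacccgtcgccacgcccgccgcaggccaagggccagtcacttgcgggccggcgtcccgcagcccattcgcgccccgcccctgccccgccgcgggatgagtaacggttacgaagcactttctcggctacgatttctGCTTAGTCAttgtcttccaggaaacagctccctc
GCLC, chr6:53545102-53545351: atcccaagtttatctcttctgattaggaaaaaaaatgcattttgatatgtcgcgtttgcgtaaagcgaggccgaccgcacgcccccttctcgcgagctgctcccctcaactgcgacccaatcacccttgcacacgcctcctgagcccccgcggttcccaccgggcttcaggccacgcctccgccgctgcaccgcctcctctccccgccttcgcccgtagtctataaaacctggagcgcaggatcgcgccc

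GCLM held 1 match, GCTTAGTCA, which reads TGACTAAGC on the other strand, 34 to 26 bases before the RefSeq start. GENCODE 44 also has a GCLM transcript that begins upstream of this start, so that the last 26 bases of the window lie in its first exon. GCLC held no match in its window, none of which is exon in GENCODE 44. In GENCODE 44 the GCLC gene reaches to position 53616970, upstream of this window, and sequence outside the windows was not searched. TGACNNNGC occurred in 10.9% of all 35116 promoter windows of this length and TGATGNAA in 3.14%. Of the 8 genes, 3 had a window in the table. The third, GGT1, had 2 windows, of which 1 held a match to TGACNNNGC, GCTGGGTCA, 29 to 21 bases before its start. None of these windows matched TGATGNAA. A match is a run of letters and not a measured binding site, and binding was not measured in these data.

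SLC7A11 (ENSG00000151012, chr4:138164097-138242349, minus strand, GRCh38), the transporting subunit of system xc-, had the largest log2 fold change of the 8 genes at the medium and high doses. In vehicle it was measured at 129.7, 142 and 145 CPM in replicates 1 to 3. At the low dose the libraries held 147, 135 and 129 CPM and overlapped the vehicle libraries. Medium-dose libraries held 205, 223 and 207 CPM, all above vehicle. The high-dose libraries, at 338, 269 and 351 CPM, all lay above the medium dose, with replicate 2 the lowest. The log2 fold change against vehicle was −0.02 ± 0.10 (SE, n = 3 per group) at the low, 0.61 ± 0.10 at the medium and 1.20 ± 0.10 at the high dose, and 1.31 at the high dose without replicate 2. Each SE was derived from the log2 fold change and the F of edgeR's quasi-likelihood test. It rests on a spread estimated over all 12 libraries and not on that of 1 group. The high dose thus held 2.3 times the vehicle level in the fit. In RNA from a whole culture, more copies per cell and more cells with the transcript cannot be told apart. Its exons share 865 bp with the antisense SLC7A11-AS1, which was measured at 0.55 to 4.34 CPM, and although the library kit was a directional one, the strand setting of the counting is not given in the sources used here, so the split of reads of this stretch between both genes is uncertain.

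GCLC (ENSG00000001084, chr6:53497341-53616970, minus strand) encodes the subunit of glutamate-cysteine ligase that carries out catalysis. Its vehicle libraries held 74.7, 71.2 and 76.5 CPM and its low-dose libraries 79.1, 74.9 and 79.7 CPM, 2 of the latter above all vehicle libraries. At the medium dose it was measured at 103, 103 and 102 CPM, the tightest group of the gene, and at the high dose at 124, 133 and 122 CPM. The groups thus lay apart from vehicle to medium and from medium to high. Log2 fold changes against vehicle were 0.07, 0.47 and 0.77 at the low, medium and high doses, each with an SE of 0.06. Without high-dose replicate 2, the last was 0.73.

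GCLM (ENSG00000023909, chr1:93885199-93909456, minus strand) encodes the subunit that raises the activity of GCLC. In vehicle it held 61.1, 61.5 and 68.9 CPM, and at the low dose 69.0, 59.7 and 65.2 CPM. The medium-dose libraries, at 85.0, 86.7 and 80.4 CPM, lay above all vehicle and low-dose libraries, and the high-dose libraries, at 99.3, 120.2 and 103 CPM, above all of the medium dose. Here high-dose replicate 2 was the highest library. The log2 fold changes were 0.02, 0.40 and 0.75 (SE 0.09 each), and 0.67 at the high dose without that replicate.

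The ratio of GCLC to GCLM within a library was between 1.11 and 1.26 in all 12 libraries, and its group means were 1.16 ± 0.0561 (SD, n = 3) in vehicle, 1.21 ± 0.0555 at the low, 1.22 ± 0.0403 at the medium and 1.18 ± 0.0717 at the high dose. The ranges of all 4 groups overlapped. The ratio of SLC7A11 to GCLC moved more. It was 1.74 to 2.00 in vehicle and 1.99 to 2.17 with the medium dose, while high-dose libraries gave 2.72 and 2.88 in replicates 1 and 3 but 2.02 in replicate 2. The ratio thus lay above the medium-dose range in 2 of the 3 high-dose libraries and within it in the third.

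**Figure D1:**
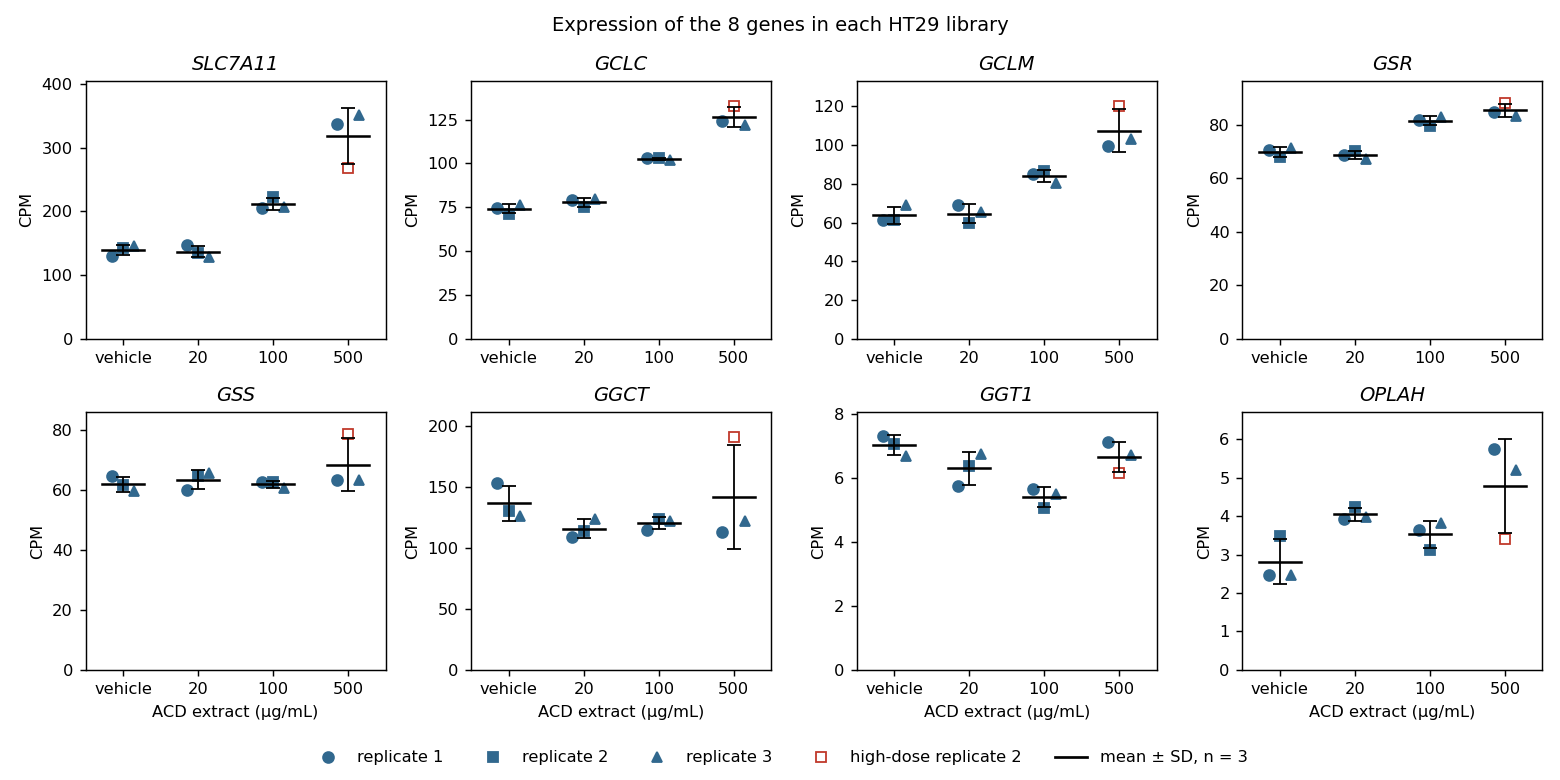
Expression of each of the 8 genes in CPM (vertical axes, each from 0) against the group (vehicle and 20, 100 and 500 µg/mL of ACD), 1 point per library with mean ± SD (n = 3), high-dose replicate 2 drawn open. SLC7A11, GCLC, GCLM and GSR had all medium- and high-dose libraries above all vehicle libraries, while GSS, GGCT and GGT1 at the high dose overlapped vehicle.

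GSS (ENSG00000100983, chr20:34928432-34956027, minus strand), which completes glutathione, held 64.6, 61.6 and 59.6 CPM in vehicle and 62.5, 62.7 and 60.5 CPM at the medium dose. The low-dose libraries, at 59.9, 64.6 and 65.8 CPM, also overlapped vehicle. Replicates 1 and 3 of the high dose held 63.4 and 63.2 CPM, within the vehicle range, and replicate 2 held 78.6 CPM. The log2 fold changes were 0.03, 0.00 and 0.14 (SE 0.09 each), and 0.03 at the high dose without replicate 2. The highest value of GSS is thus that of 1 library. Part of its exons, 138 bp, lies opposite to MYH7B, measured at no more than 0.715 CPM.

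GSR (ENSG00000104687, chr8:30678066-30727846, minus strand), which keeps glutathione reduced, differed from vehicle by less than GCLC and GCLM did. Vehicle libraries held 70.8, 67.9 and 71.3 CPM and low-dose libraries 68.8, 70.2 and 67.3 CPM. Medium-dose libraries held 82.0, 79.7 and 83.2 CPM, and high-dose libraries 85.0, 88.3 and 83.4 CPM. All 6 libraries of the higher 2 doses lay above all vehicle libraries. Log2 fold changes were −0.02, 0.22 and 0.29 (SE 0.06 each), with 0.27 at the high dose without replicate 2, and most of the difference was already there at the medium dose, since high minus medium was 0.07.

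The genes of the gamma-glutamyl cycle did not share this course. GGCT (ENSG00000006625, chr7:30496621-30504841, minus strand), which releases 5-oxoproline, held 153, 130.1 and 126 CPM in vehicle, 109, 114 and 124 CPM at the low dose and 115, 124 and 122 CPM at the medium dose, so the libraries of both lower doses lay below all vehicle libraries. High-dose replicates 1 and 3 held 113 and 122 CPM, below vehicle, and replicate 2 held 191 CPM, above every other library. Its log2 fold changes were −0.24, −0.18 and 0.05 (SE 0.16 each), and that of the high dose was −0.21 without replicate 2. The direction of GGCT at the high dose therefore rests on replicate 2. GGCT has the shortest exons of the 8 genes in total, 1594 bp, and the deviation of replicate 2 from its group, 0.70 on the log2 scale, was the largest positive one of the 8. Vehicle replicate 1, the highest vehicle library of GGCT, deviated from its group by 0.26.

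GGT1 (ENSG00000100031, chr22:24594811-24629005, plus strand), the surface enzyme that begins the breakdown of extracellular glutathione, was low in every library. It held 7.32, 7.06 and 6.68 CPM in vehicle, 5.74, 6.38 and 6.76 CPM at the low, 5.65, 5.06 and 5.49 CPM at the medium and 7.11, 6.16 and 6.70 CPM at the high dose. The medium-dose libraries were the lowest and lay below all libraries of the other groups, so its course over the doses was not of 1 direction. Log2 fold changes were −0.16, −0.38 and −0.07 (SE 0.10 each), and −0.02 at the high dose without replicate 2. Near copies of GGT1 in the genome, such as GGT2P and GGT3P, were listed at 0.123 CPM or less, but reads shared between copies could be split by the counting. GGT1 also shares 2472 bp of exons on its own strand with ENSG00000286070, an ID that the table does not hold.

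OPLAH (ENSG00000178814, chr8:144051266-144063965, minus strand), which returns 5-oxoproline to glutamate, was the lowest of the 8, with 45 to 169 counts per library. Its vehicle libraries held 2.48, 3.49 and 2.46 CPM. The low-dose libraries held 3.92, 4.23 and 3.98 CPM, all above vehicle, and the medium-dose libraries 3.63, 3.13 and 3.81 CPM. Replicates 1 and 3 of the high dose held 5.76 and 5.20 CPM, the highest of all, while replicate 2 held 3.40 CPM, within the vehicle range. Log2 fold changes were 0.50, 0.30 and 0.77 (SE 0.19 each), and 0.92 at the high dose without replicate 2. OPLAH is thus the only one of the 8 whose low-dose libraries all lay above vehicle, and its medium-dose mean lay below its low-dose mean.

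**Figure D2:**
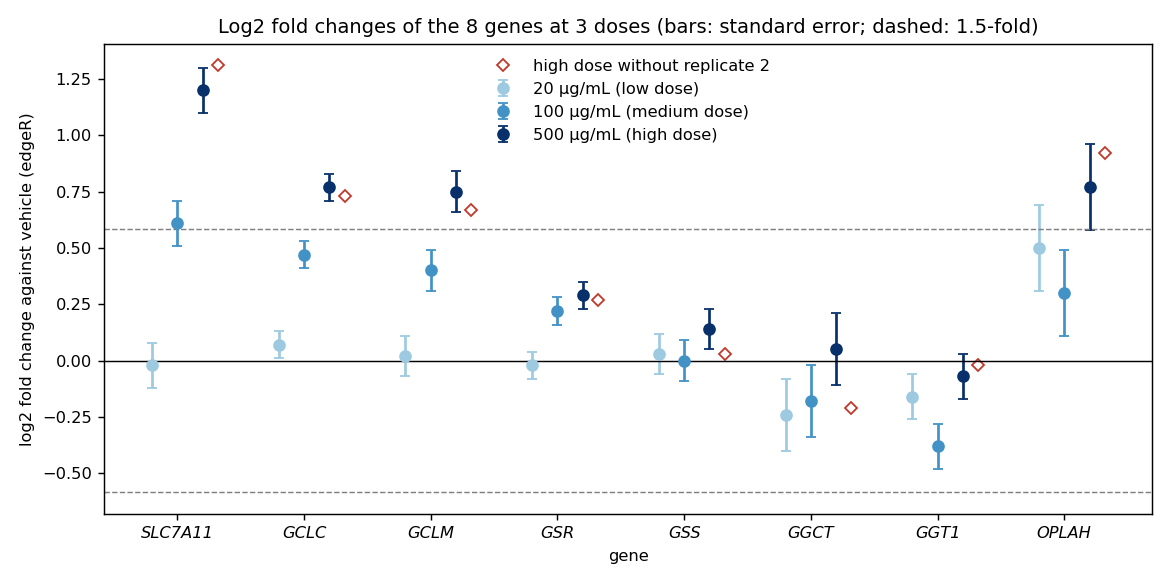
Log2 fold change against vehicle from edgeR (vertical axis) of each of the 8 genes (horizontal axis) at the low, medium and high doses, with standard errors as bars, dashed lines at a 1.5-fold change, and open diamonds for the high dose without replicate 2. SLC7A11 (1.20), GCLC (0.77), GCLM (0.75) and OPLAH (0.77) lay above the upper line at the high dose, and GGCT moved from 0.05 to −0.21 without replicate 2.

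Genes were called differentially expressed (DEGs) with an adjusted p under 0.05 (edgeR's quasi-likelihood test, Benjamini–Hochberg adjustment over all genes tested) and a fold change over 1.5. At the high dose 4 of the 8 were DEGs (GCLC, GCLM, SLC7A11 and OPLAH), where 2.93% of all genes tested were. With the adjusted p alone there were 5, GSR added, beside 5.77% of all genes. In 4 of the 8 (GCLC, GCLM, GSR and SLC7A11) all high-dose libraries lay above all vehicle libraries, beside 10.5% of all genes. Since these contrasts were used to choose the 8, nothing is read from these counts. GCLC, GCLM and SLC7A11 were DEGs at the high dose in all 19 alternative settings. OPLAH was one in 8 of 19 (0.63 to 0.99 on the log2 scale), and among single libraries left out it stayed a DEG only without vehicle replicate 2, medium replicate 2 or high replicate 2.

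At the medium dose 1 of the 8, SLC7A11, was a DEG, where 0.676% of all genes were. Its fold change lay near the 1.5-fold limit, and the call was lost without vehicle replicate 1 (0.56), vehicle replicate 2 (0.63) or medium replicate 2 (0.57). With the adjusted p alone GCLC was added, making 2, beside 1.01% of all genes. All medium-dose libraries lay above vehicle in 4 of the 8 (GCLC, GCLM, GSR and SLC7A11), beside 14.5% of all genes, and below in 2 (GGCT and GGT1), beside 14.1%. At the low dose 0 of the 8 were DEGs by edgeR and by DESeq2, where edgeR called 0.111% of all genes. An unadjusted p under 0.05 in edgeR was held by 1 of the 8 at the low, 5 at the medium and 5 at the high dose. The share of all genes with such a p is not given here, so nothing is read from these counts. All low-dose libraries lay above vehicle in 1 (OPLAH, beside 11.4% of all genes) and below in 1 (GGCT, beside 9.61%). The median log2 fold change of the 8 was 0.00 at the low, 0.26 at the medium and 0.52 at the high dose, and that of all genes tested was 0.00, −0.01 and 0.01.

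To compare levels between genes, CPM were divided by the length of all annotated exons of a gene. In vehicle the order of CPM per kilobase was GGCT (85.5 ± 9.21, SD, n = 3), GSR (19.4 ± 0.507), SLC7A11 (14.4 ± 0.827), GCLM (11.8 ± 0.807), GSS (10.0 ± 0.411), GCLC (8.61 ± 0.316), GGT1 (1.60 ± 0.0738) and OPLAH (0.632 ± 0.132), and no neighbours in this order overlapped. GSR (22.7) and SLC7A11 (21.9) overlapped at the medium dose. At the high dose SLC7A11 (33.1 ± 4.57) was second after GGCT and above GSR (23.7 ± 0.695), and GCLC (14.7 ± 0.691) was above GSS (11.1 ± 1.43). The order depends on the length used. Divided by the longest transcript, the vehicle levels of GCLC and GSS were 19.6 and 20.5 CPM per kilobase, overlapping each other and above SLC7A11 (14.4) and GCLM (13.1). By that length the high-dose order after GGCT was GCLC (33.4), SLC7A11 (33.1) and GSR (28.2), and SLC7A11 overlapped both of the others.

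Over the 12 libraries, log2 CPM of GCLC, GCLM, GSR and SLC7A11 moved together, with Pearson's r of 0.90 to 0.98 and Spearman's rho of 0.83 to 0.94 in the 6 pairs. Without the high-dose libraries (n = 9), r was 0.88 to 0.96. These 4 are the genes whose medium- and high-dose libraries all lay above vehicle, so a high r follows in part from that choice. Over the 12 libraries, r with these 4 was 0.26 to 0.50 for GSS and 0.07 to 0.32 for GGCT. It was 0.35 to 0.58 for OPLAH and −0.33 to −0.14 for GGT1. Without the high-dose libraries, r of GGT1 with these 4 was −0.88 to −0.75. These values are descriptive, since the points share their dose groups, library and depth. Of 10626 genes with a mean of at least 5 CPM, those most like GCLC were ALDH3A1 (r = 0.99, rho = 0.91), an aldehyde dehydrogenase, AKR1B10 (r = 0.98, rho = 0.85), an aldo-keto reductase, and GCLM (r = 0.98, rho = 0.94). Without the high dose r was 0.98, 0.96 and 0.96. The mean of ALDH3A1 was 21.7 CPM in vehicle, 27.7 at the low, 52.7 at the medium and 76.5 at the high dose.

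The genes most like GCLM were GCLC, TMEM45B (r = 0.97, rho = 0.94), a membrane protein, and NAMPT (r = 0.97, rho = 0.92), which makes the NAD precursor NMN. NAMPT went from a mean of 134 CPM in vehicle to 193 at the medium and 248 at the high dose. Those most like SLC7A11 were SLC2A1 (r = 0.97, rho = 0.84), the glucose transporter GLUT1, MT-RNR1 (r = 0.95, rho = 0.85), the small ribosomal RNA of mitochondria, and CLIP4 (r = 0.95, rho = 0.92). The likeness, ranked by r of log2 CPM, is one of the course over the libraries and not of size. MT-RNR1 had a mean of 1288 CPM in vehicle and 30383 at the high dose, and SLC2A1 533 and 743 CPM.

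Beyond the 8 genes, 78 genes of the same metabolism in 7 lists were examined, of which 70 passed the filter. The lists, like the 8 genes, were chosen with earlier results of these data known, so their counts are no independent evidence. At the high dose 11 of these 70 rose and 1 fell by the DEG thresholds, which 2.93% of all genes tested passed in either direction. The median log2 fold change of the 70 was 0.17, with 51 above 0, beside 0.01 over all genes tested. At the medium and low doses 0 of the 70 were DEGs by edgeR, where 0.676% and 0.111% of all genes tested were. An unadjusted p under 0.05 in edgeR was held by 35 of the 70 at the high, 14 at the medium and 3 at the low dose. The share of all genes with such a p is not given here, so nothing is read from these counts. DESeq2 called 1 at the medium dose, SLC3A1, and 0 at the low dose. Unless another dose is named, the changes below are log2 fold changes ± SE at the high dose with adjusted p-values from edgeR. SLC3A2, SLC1A4, SLC3A1, ASNS, PSAT1, CHAC1, ME1 and ATF3 were DEGs at the high dose in all 19 alternative settings. Without high replicate 2, the log2 fold changes of the 12 DEGs were 0.70 (SLC3A2), 1.3 (SLC1A4), −1.59 (SLC3A1), 0.77 (CTH), 1.87 (ASNS), 1.37 (PSAT1), 3.07 (CHAC1), 1.3 (ABCC2), 0.66 (ME1), 0.50 (ATF4), 1.39 (ATF3) and 0.67 (DDIT3), each in the direction of the full fit.

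For the supply of cysteine, 3 of 11 tested genes rose and 1 fell, where 2.93% of all genes tested were DEGs. The median of the 11 was 0.13. SLC3A2, the heavy chain that carries SLC7A11 to the membrane, held 198, 172 and 168 CPM in vehicle, 201, 193 and 207 CPM with the medium dose, and 297, 375 and 286 CPM with the high dose. Its medium-dose libraries overlapped vehicle, and it rose at the high dose (log2 fold change 0.83 ± 0.11, adjusted p = 5.98e-04), whereas SLC7A11 already lay above vehicle at the medium dose. SLC1A4, a transporter of neutral amino acids, rose by 1.16 ± 0.13 (adjusted p = 2.30e-04), and CTH, which makes cysteine from cystathionine, by 0.86 ± 0.13 (adjusted p = 0.0024). SLC3A1, the heavy chain of the other cystine transporter of epithelia, fell from 3.19, 3.15 and 3.87 CPM in vehicle to 1.31, 1.20 and 0.984 CPM at the high dose (log2 fold change −1.56 ± 0.20, adjusted p = 5.25e-04), and was at −0.75 at the medium dose. Its light chain SLC7A9 had 1 to 10 counts and was not tested, and CBS, which precedes CTH, had no more than 1 count in any library.

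The ratio of SLC7A11 to SLC3A2 was 0.654 to 0.859 in vehicle, 0.701 to 0.892 at the low dose and 0.998 to 1.15 at the medium dose. At the high dose it was 1.14 and 1.23 in replicates 1 and 3 and 0.718 in replicate 2. That value lay in the vehicle range only through vehicle replicate 1 (0.654), as vehicle replicates 2 and 3 were at 0.828 and 0.859. Vehicle replicate 1 shared the lean of high-dose replicate 2 towards short transcripts. The medium-dose libraries thus lay above vehicle, and the high dose did so in 2 of 3 libraries.

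**Figure D3:**
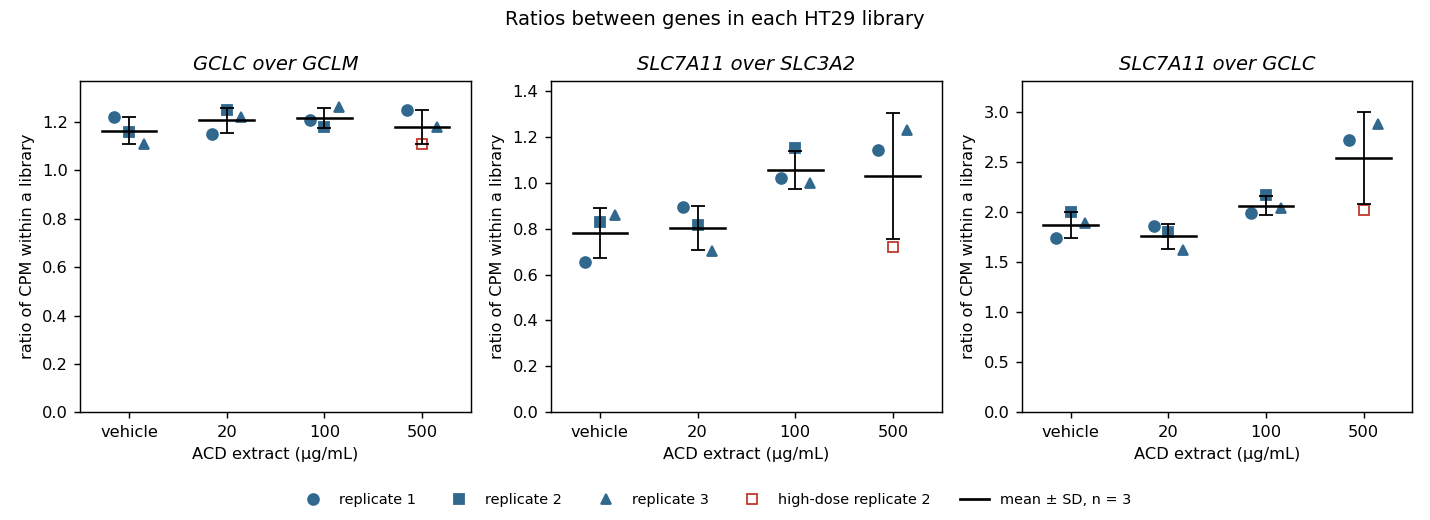
Ratio of CPM between 2 genes within each library (vertical axes, each from 0) for GCLC over GCLM, SLC7A11 over SLC3A2 and SLC7A11 over GCLC, by group, 1 point per library with mean ± SD (n = 3), high-dose replicate 2 drawn open. GCLC over GCLM stayed between 1.11 and 1.26, while both ratios of SLC7A11 were lower in high-dose replicate 2 (0.718 and 2.02) than in the other 2 libraries of its group.

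In the supply of glutamate and glycine, 2 of 9 genes rose, where 2.93% of all genes tested were DEGs. ASNS, which makes asparagine and glutamate from aspartate and glutamine, rose by 2.08 ± 0.13 (adjusted p = 1.94e-06), from 55.5 to 56.5 CPM in vehicle to 204, 299.7 and 205 CPM. PSAT1, an aminotransferase of serine synthesis, rose by 1.44 ± 0.08 (adjusted p = 8.53e-07). Their medium-dose values were 0.18 and 0.14. SHMT2, which makes glycine in mitochondria, was at 0.58 ± 0.07 with an adjusted p of 3.76e-04, just under the fold limit, and it was a DEG by DESeq2, with DESeq2's size factors and in 8 of the 12 fits that left out 1 library.

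Where 2.93% of all genes tested were DEGs, 1 of 8 tested genes of the gamma-glutamyl cycle and of glutathione breakdown rose. This was CHAC1, which breaks glutathione down inside the cell, and it had the largest log2 fold change of the 70 genes. It held 3.14, 2.27 and 2.37 CPM in vehicle, 4.09, 3.36 and 3.93 CPM with the medium and 21.9, 17.5 and 20.7 CPM with the high dose (log2 fold change 2.97 ± 0.13, adjusted p = 1.03e-07). Its medium-dose value was 0.56 and it was not a DEG, although the libraries lay above vehicle. CHAC2, its relative, was at 0.23 (adjusted p = 0.681).

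Of 12 genes that use glutathione (peroxidases, glutaredoxins and the glyoxalase pathway), 0 were DEGs at the high dose by edgeR and by DESeq2. Of all genes tested, edgeR called 2.93%. Of the 12, 3 had an unadjusted p under 0.05 in edgeR, again without the share of all genes beside it. The largest change was that of GPX8, at 0.98 ± 0.33 (adjusted p = 0.114), with means of 0.846 CPM in vehicle and 1.65 CPM at the high dose. GLO1 was at 0.39 ± 0.14 (adjusted p = 0.152), with its high-dose libraries above vehicle. GPX2, the peroxidase of the gut epithelium, was at 0.28 ± 0.08 (adjusted p = 0.0661), and GPX4, which reduces lipid peroxides, at −0.12 ± 0.11 (adjusted p = 0.614). Of 9 tested transporters of glutathione and its conjugates, 1 rose, ABCC2, an exporter of conjugates, by 1.17 ± 0.27 (adjusted p = 0.0252). ABCC2 held no more than 2.21 CPM in any library, and its call was lost without vehicle replicate 1 (0.95), vehicle replicate 3 (1.19), high replicate 1 (0.97) or high replicate 3 (1.20). In the supply of NADPH, 1 of 9 rose, ME1, malic enzyme, by 0.73 ± 0.07 (adjusted p = 4.36e-05), and its medium-dose value was 0.34.

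Of 12 transcription factors and partners that act on antioxidant or amino acid response elements, 3 rose at the high dose. Of all genes tested, 2.93% were DEGs there. ATF3 rose by 1.45 ± 0.15 (adjusted p = 1.06e-04), DDIT3 by 0.75 ± 0.13 (adjusted p = 0.00372) and ATF4 by 0.59 ± 0.08 (adjusted p = 0.00146). ATF4 lay at the fold limit, and its call was lost without high replicate 2 (0.50), vehicle replicate 2 (0.57) or vehicle replicate 3 (0.56). These 3 were at 0.21, −0.14 and 0.04 at the medium dose. CEBPG (0.52 ± 0.09, adjusted p = 0.00386) and MAFF (0.31 ± 0.08, adjusted p = 0.0452) passed the adjusted p but not the fold limit. NFE2L2, which encodes NRF2, was at 0.23 ± 0.08 (adjusted p = 0.138), with its medium- and high-dose libraries all above vehicle. KEAP1, the inhibitor of NRF2, was at 0.13 ± 0.11 (adjusted p = 0.589). The activity of these proteins was not measured.

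**Figure D4:**
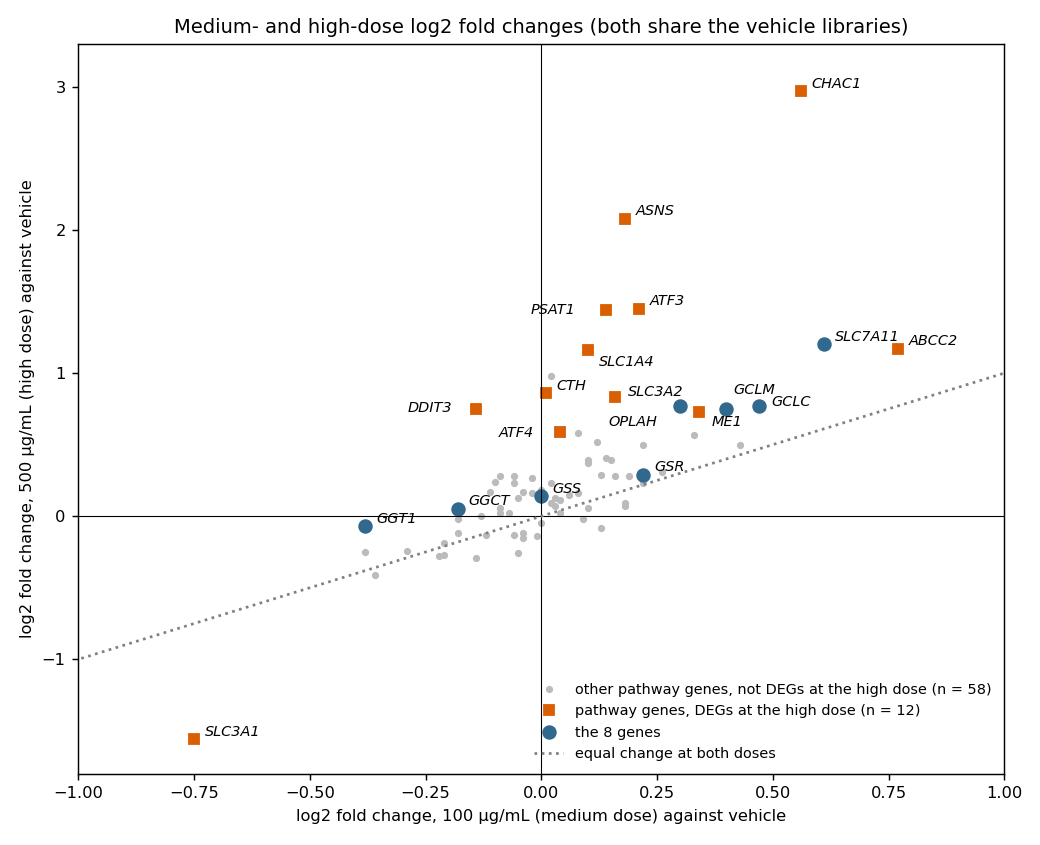
Log2 fold change at the high dose (vertical axis) against that at the medium dose (horizontal axis) for the 8 genes and the 70 other genes tested, 12 of them DEGs at the high dose, with a dotted line where both are equal. SLC7A11, GCLC and GCLM were at 0.61, 0.47 and 0.40 at the medium dose, and ABCC2 and ME1 of the lists at 0.77 and 0.34. ASNS, PSAT1 and SLC3A2 were at 0.18, 0.14 and 0.16 there and higher at the high dose. Both axes share the vehicle libraries.

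Set side by side, the log2 fold changes at the medium and high doses had the following courses. GCLC went from 0.47 to 0.77, GCLM from 0.40 to 0.75 and SLC7A11 from 0.61 to 1.20, so high minus medium was 0.30, 0.35 and 0.59. Among the DEGs of the lists, ABCC2 went from 0.77 to 1.17 and ME1 from 0.34 to 0.73. Their high minus medium was 0.39 and 0.38, near that of GCLC and GCLM. SLC3A1 went from −0.75 to −1.56. ASNS went from 0.18 to 2.08, CHAC1 from 0.56 to 2.97, SLC1A4 from 0.10 to 1.16 and CTH from 0.01 to 0.86. SLC3A2 went from 0.16 to 0.83, PSAT1 from 0.14 to 1.44 and ATF3 from 0.21 to 1.45. ATF4 went from 0.04 to 0.59 and DDIT3 from −0.14 to 0.75. Whether these courses differ between the genes was not tested.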

How the data were processed

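Per the study's methods, the authors ran FastQC and Trim Galore on the reads, STAR for alignment and RSEM 1.3.3 for counts on a GRCh38 annotation, and the submitters' processing notes name STAR 2.7.3a and Trim Galore 0.6.5. The deposited values are RSEM expected counts per gene ID, not normalized, and these were rounded to whole numbers. The study writes the genome as GRCh38 (hg19), and no strand setting is given in the sources used here. Of the IDs, 93.2% are in GENCODE 44 (GRCh38), from which positions and lengths were taken.

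All 12 libraries were fitted together in edgeR 4.0.16 under R 4.3.3 (filterByExpr, TMM, robust quasi-likelihood). No replicate term was used, since the study's methods name none. A prior count of 2 was added for log2 CPM. The biological coefficient of variation was 11.2%, and no library was a duplicate. Alternatives were DESeq2 1.42.0, its size factors, other filters, fewer libraries, a replicate block and, chosen after seeing the data, chromosome M left out.

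The 8 genes and the 7 lists were chosen with earlier results of these data known. Named are the 8 genes, every DEG of the lists and the 3 genes most like GCLC, GCLM and SLC7A11. Others were named after their values were seen. Figures were drawn with matplotlib 3.10.9.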

Additional observations from a re-analysis of the deposited data

How the results depend on the processing

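The counts of DEGs depended on the settings. With vehicle and 1 dose alone there were 172 at the high, 191 at the medium and 51 at the low dose, beside 451, 104 and 17. With no minimum fold there were 887 at the high dose, and at the low dose there were 59 with DESeq2 and 34 with no low-count filter. With each library left out, they were 310 to 768 at the high, 52 to 249 at the medium and 10 to 109 at the low dose. Without high replicate 2 they were 768, 249 and 109. At the medium dose they were 69 without vehicle replicate 1, 52 without vehicle replicate 2, 63 without medium replicate 1 and 59 without medium replicate 3, with 10 at the low dose when vehicle replicate 2 was left out. Of the 8 genes, 2 were called at the medium dose with no minimum fold (GCLC and SLC7A11), and 0 to 1 with a library left out. Of the pathway genes, 21 were called at the high dose with no minimum fold, and at the medium dose 1 with DESeq2 (SLC3A1), 1 with vehicle and 1 dose alone (SLC3A1), 1 with no minimum fold (ME1) and 0 to 1 with a library left out (SLC3A1 without high replicate 2). The low-dose OPLAH value was 0.71 without vehicle replicate 2, beside 0.50. With the replicate number as a block, the DEGs were 379, 75 and 17, OPLAH was lost at the high dose (0.76), and ABCC2 (adjusted p = 0.0674 in edgeR) and ATF4 (0.58) were lost. Deviations from the group correlated by more than 0.1 in 5 of 18 pairs of same-numbered libraries and in 14 of 36 pairs of different-numbered ones. With 3 libraries per group and some libraries that stand apart, these correlations cannot show whether the libraries were paired. With vehicle and 1 dose alone, CTH, DDIT3, ABCC2, ATF4 and OPLAH were lost at the high dose. The causes were not tested.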
